A study of Mus musculus with 5 samples.

Results

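Acp5, Ctsk, Mmp9 and Atp6v0d2 encode the secreted and acid-handling machinery by which an osteoclast resorbs bone. They were chosen by name, as a set of 4 genes out of the 21617 in the deposited count table, and were followed across the deposited myeloid subclusters of 5 mouse libraries. The libraries came from foreign body granulomas around silk at 4 weeks, silk at 2 weeks, sponge at 4 weeks and sponge at 2 weeks, and from thioglycollate-elicited macrophages, which the labels call the control. Thioglycollate broth is an irritant used to draw macrophages into a body cavity, so the control is another inflammatory population and not resting tissue. The labels give no strain, sex, age, number of animals per library or time for the control. Each group was 1 library, so no difference below has a replicate check or a test, and every interval covers counting error only.

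Osteoclasts arise when cells of the monocyte and macrophage lineage fuse under the cytokines CSF1 and RANKL, and the transcription factor NFATc1 then switches on their effector genes. The mature cell seals off a patch of bone, acidifies it with a vacuolar proton pump fed by carbonic anhydrase, and releases proteases into the acid. Acp5 encodes tartrate-resistant acid phosphatase, the classical osteoclast stain, and Ctsk encodes cathepsin K, a protease that cleaves collagen at low pH. Mmp9 encodes gelatinase B, which neutrophils also store, and Atp6v0d2 encodes the d2 subunit of the membrane sector of the proton pump, which is also needed for fusion of osteoclast precursors in mice. Macrophages that fuse on an implant into foreign body giant cells share part of this program, and Ctsk and Acp5 are also made by macrophages outside bone.

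In the gene annotation of the build GRCm38, Acp5 lies on the minus strand at chr9:22126727-22135711 and Ctsk on the plus strand at chr3:95499256-95509362. Mmp9 lies on the plus strand at chr2:164940780-164955850 and Atp6v0d2 on the minus strand at chr4:19876841-19922605. Promoters of 2 of the 4 genes, Ctsk and Acp5, matched in the RefSeq promoter table (GRCm38.p6), and they are shown because the levels of these genes ran together over the subclusters. Each sequence runs 5′ to 3′ on the strand of the gene and ends just before a transcript start, with capitals for a match to 1 of 3 motifs searched on both strands. The motifs were CATGTG or CACATG, an E-box bound by MITF, TGANTCA, the site of AP-1, and GGAAAA or TTTTCC, the core of NFAT sites. The CACATG stretch belongs to another Acp5 start, and only 30 bases of it are printed because its window overlaps an annotated exon. The table holds a further Acp5 start, whose window at chr9:22131866-22132115 held none of the motifs and is not printed.
Ctsk, chr3:95498960-95499209, plus strand: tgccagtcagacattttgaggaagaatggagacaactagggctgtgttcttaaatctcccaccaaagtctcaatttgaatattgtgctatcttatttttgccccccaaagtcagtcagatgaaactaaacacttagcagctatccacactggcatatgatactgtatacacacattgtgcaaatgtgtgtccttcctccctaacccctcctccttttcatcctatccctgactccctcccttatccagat
Acp5, chr9:22135747-22135996, minus strand: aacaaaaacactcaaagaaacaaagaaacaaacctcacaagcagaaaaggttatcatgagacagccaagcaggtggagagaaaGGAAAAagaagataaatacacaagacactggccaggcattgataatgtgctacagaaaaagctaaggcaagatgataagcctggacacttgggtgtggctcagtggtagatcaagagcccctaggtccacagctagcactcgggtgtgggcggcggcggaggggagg
Acp5, other start, chr9:22130671-22130700, minus strand: aagtccagtgctCACATGacccaaggggag
The GGAAAA stood 167 bases before its start and the CACATG 90 bases before its start, while the 250 bases before the Ctsk start held none of the 3 motifs. Over all 32851 promoter windows of 250 bases in the table, 12.3% held the E-box, 6.75% the AP-1 site and 20.4% the NFAT core. A match is a stretch of letters and not a bound site, and a window without one says only that these letters are not in it.

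Transcripts were counted by unique molecular identifiers (UMIs), and a level is given as CPM, the UMIs of the gene per 1000000 UMIs of the cells summed. All class levels refer to the authors' joint class of monocytes, macrophages and dendritic cells, without their subcluster C9, which carried mast cell markers at 9433 CPM in control and dendritic cell markers in all libraries. The class held 1045 cells in silk at 4 weeks, 7350 in silk at 2 weeks, 4605 in sponge at 4 weeks, 7113 in sponge at 2 weeks and 7783 in control, 27896 of the 41191 cells in all. Its median depth was 4217, 4337, 3078 and 4729 UMIs per cell in those granulomas in that order, and 7749 in control. Subcluster C7 held 47.5%, 60.7% and 45.1% of the class in silk at 4 weeks, silk at 2 weeks and sponge at 4 weeks, C4 held 35.7% in sponge at 2 weeks and C1 83.2% in control, so a class level also carries this makeup. The same barcode occurred in more than 1 library for 153 sequences, between 2 and 27 for a pair of libraries. Macrophage markers (8 genes, among them Csf1r, Cd68 and C1qa) summed to between 3119 and 6566 CPM in the class of each library.

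The 3 genes for secreted enzymes were higher in the class of all 4 granulomas than in control, and the proton pump subunit was lower. Acp5 stood highest in silk at 4 weeks, Ctsk in sponge at 4 weeks, Mmp9 in sponge at 2 weeks and Atp6v0d2 in control. The orders of the 5 libraries therefore differed from gene to gene.

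Acp5 was at 242 CPM in silk at 4 weeks (95% Poisson interval 230 to 255), 228 CPM in silk at 2 weeks (224 to 233), 208 CPM in sponge at 4 weeks (202 to 214), 140 CPM in sponge at 2 weeks (137 to 144) and 62.8 CPM in control (61.0 to 64.6). The intervals of the 2 silk libraries overlapped and all others stood apart. Ctsk was at 1487 CPM in silk at 4 weeks (1457 to 1518), 1071 CPM in silk at 2 weeks (1061 to 1081), 1894 CPM in sponge at 4 weeks (1876 to 1913), 349 CPM in sponge at 2 weeks (344 to 355) and 278 CPM in control (275 to 282). Sponge at 2 weeks was thus the granuloma nearest to control for both genes.

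Mmp9 was at 83.0 CPM in silk at 4 weeks (76.0 to 90.4), 47.2 CPM in silk at 2 weeks (45.1 to 49.3), 36.0 CPM in sponge at 4 weeks (33.4 to 38.6), 122 CPM in sponge at 2 weeks (119 to 125) and 21.8 CPM in control (20.7 to 22.9). Atp6v0d2 was at 177 CPM in silk at 4 weeks (167 to 188), 96.9 CPM in silk at 2 weeks (94.0 to 99.9), 143 CPM in sponge at 4 weeks (138 to 148), 79.5 CPM in sponge at 2 weeks (76.8 to 82.2) and 374 CPM in control (369 to 378). For these genes no intervals of any 2 libraries overlapped.

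**Figure D1:**
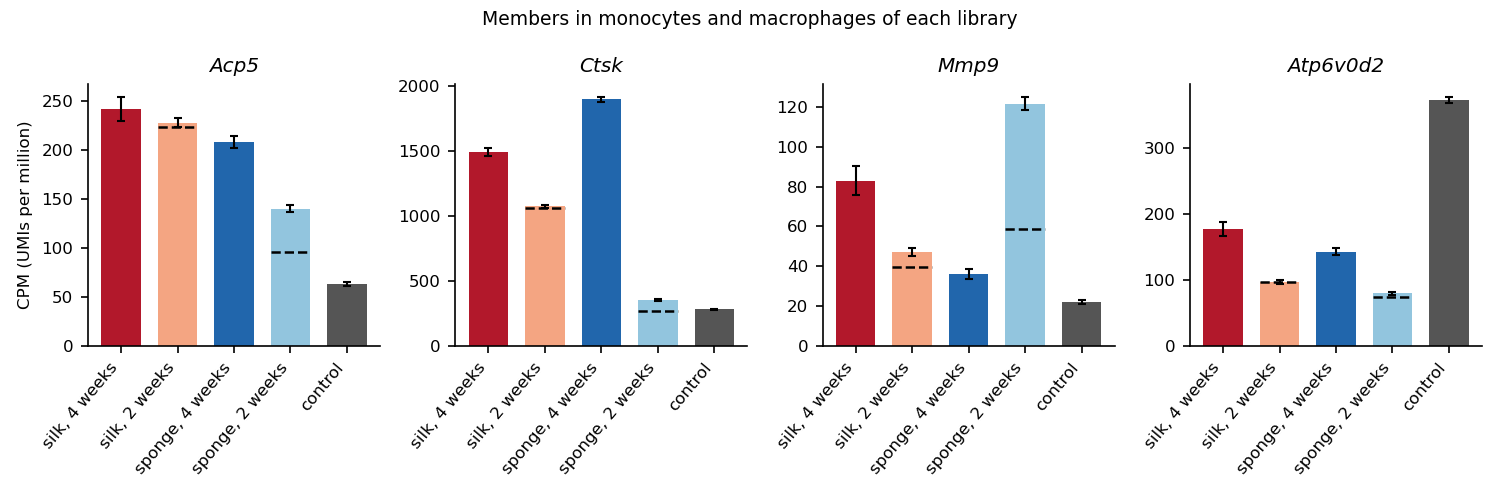
Level of each gene (CPM, linear axis from 0) in the myeloid class of each library, from silk at 4 weeks on the left to control on the right. Bars are the summed counts of 1 library, whiskers the 95% Poisson interval, and dashed lines the level without the cells that held high counts of both Acp5 and Mmp9. Mmp9 in sponge at 2 weeks was 122 CPM with those cells and 58.9 CPM without them.

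On the log2 scale, with 0.5 counts added to each sum, Acp5 exceeded control by 1.95 in silk at 4 weeks, 1.86 in silk at 2 weeks, 1.73 in sponge at 4 weeks and 1.16 in sponge at 2 weeks. The same ratios were 2.42, 1.94, 2.77 and 0.33 for Ctsk, 1.93, 1.11, 0.72 and 2.48 for Mmp9, and -1.08, -1.95, -1.38 and -2.23 for Atp6v0d2. These 4 comparisons share their single control library. Of the 4 genes, 3 were at least 2-fold higher than control in silk at 4 weeks, where 13.0% of all measured genes were, and 3 in silk at 2 weeks, against 13.6% of all genes. In sponge 2 were at least 2-fold higher at 4 weeks (15.1% of all genes) and 2 at 2 weeks (15.5%). Atp6v0d2 alone was at least 2-fold lower in each granuloma, where 11.3%, 12.8%, 11.7% and 12.6% of all genes were. The median log2 ratio of the 4 genes was 1.94, 1.49, 1.23 and 0.74, beside -0.04, -0.05, -0.02 and -0.11 for all measured genes. Rescaling each library to the median ratio of its genes moved the comparison of sponge at 2 weeks with control by -0.13.

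The excess of Ctsk in sponge at 2 weeks over control was not kept in settings that left some cells out. Without the 17 cells described below it was -0.05. Without cells that held 2 fibroblast or 2 neutrophil markers it was -0.72, a filter that dropped 60.1% of the class in that library and 7.34% in control. Under that filter Mmp9 and Acp5 remained higher and Atp6v0d2 lower than control in all 4 granulomas. Fibroblast markers (7 genes, such as Col1a1 and Dcn) summed to 70.0, 116, 594 and 446 CPM in the class of silk at 4 weeks, silk at 2 weeks, sponge at 4 weeks and sponge at 2 weeks, and to 0.7 CPM in control, where Lum and Postn were at 0. Neutrophil markers (9 genes, such as S100a8 and Csf3r) summed to 96.0, 166, 118 and 212 CPM in these granulomas and to 73.1 CPM in control, with Ly6g, Camp and Ngp at 0 in silk at 4 weeks and in control.

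Fibroblasts and neutrophils themselves carried Ctsk and Mmp9. Fibroblasts held Ctsk at 824, 342, 741 and 502 CPM in silk at 4 weeks, silk at 2 weeks, sponge at 4 weeks and sponge at 2 weeks, and neutrophils held Mmp9 at 1163, 659, 622 and 473 CPM. At the ratio of Ctsk to Col1a1, Col1a2 and Col3a1 in fibroblasts, the collagen counts of the class would account for 0.043%, 0.063%, 0.310% and 0.871% of its Ctsk UMIs. At the ratio of Mmp9 to S100a8, S100a9 and Retnlg in neutrophils, 1.21%, 2.48%, 2.32% and 0.543% of its Mmp9 UMIs would be accounted for. Of the class cells, 36.2%, 44.1%, 43.8% and 18.9% held a Ctsk UMI, against 2.26%, 8.29%, 14.5% and 8.27% of endothelial cells of the same granulomas, whose median depths were 3542, 5383, 4744 and 6196 UMIs. A Mmp9 UMI was in 9.95%, 5.96%, 4.43% and 7.10% of class cells and in 0%, 0.35%, 0.82% and 1.73% of endothelial cells.

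Between silk and sponge at equal age, Ctsk and Mmp9 went opposite ways at the 2 times. At 4 weeks silk exceeded sponge by 1.21 in Mmp9 on the log2 scale, which made it 1 of 4 genes at least 2-fold higher (2.03% of all genes were), with -0.35 for Ctsk, 0.22 for Acp5 and 0.31 for Atp6v0d2. None of the 4 was at least 2-fold lower, against 4.09% of all genes. At 2 weeks silk stood 1.62 above sponge in Ctsk (1 of 4 genes, 3.58% of all) and -1.37 from it in Mmp9 (1 of 4, 8.47% of all), with 0.70 for Acp5 and 0.29 for Atp6v0d2.

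Between 4 and 2 weeks, the Ctsk ratio was larger in sponge than in silk, and Mmp9 had opposite signs. Sponge at 4 weeks over sponge at 2 weeks gave 2.44 for Ctsk (1 of 4 genes at least 2-fold higher, 5.42% of all) and -1.76 for Mmp9 (1 of 4 lower, 6.16% of all), with 0.57 for Acp5 and 0.85 for Atp6v0d2. Silk at 4 weeks over silk at 2 weeks gave 0.09 for Acp5, 0.47 for Ctsk, 0.82 for Mmp9 and 0.87 for Atp6v0d2. None of these reached 2-fold, where 5.33% of all genes were higher and 3.51% lower. The opposite sign of Mmp9 in silk and sponge was not tested.

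Subcluster C7 held most of the Ctsk and Atp6v0d2 counts. Its share of all UMIs of the class was 73.1%, 80.8%, 67.3% and 25.6% in silk at 4 weeks, silk at 2 weeks, sponge at 4 weeks and sponge at 2 weeks, and its share of the Acp5 UMIs was 74.4%, 88.8%, 86.0% and 39.1%. The shares were 93.9%, 92.1%, 94.4% and 66.5% for Ctsk and 88.3%, 92.001%, 90.7% and 66.2% for Atp6v0d2. For Mmp9 they were 90.7%, 77.1%, 96.1% and 15.9%. Acp5 in silk at 4 weeks was thus close to the share of all UMIs, and Mmp9 was below it in both libraries of 2 weeks. In the control library C7 had 4 cells and was not summed.

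Within C7 the fold between the highest and the lowest granuloma was smaller than in the whole class for each gene. Some pairs lay further apart in C7, such as silk at 4 and at 2 weeks in Ctsk, Mmp9 and Atp6v0d2. Acp5 was at 246 CPM in silk at 4 weeks, 251 CPM in silk at 2 weeks, 266 CPM in sponge at 4 weeks and 214 CPM in sponge at 2 weeks, over 496, 4461, 2078 and 1122 cells. Ctsk was at 1910, 1221, 2657 and 907 CPM in the same libraries. Mmp9 was at 103, 45.0, 51.4 and 75.5 CPM, and Atp6v0d2 at 214, 110, 193 and 205 CPM. Sponge at 4 weeks over sponge at 2 weeks was 1.55 for Ctsk in C7 (1 of 4 genes at least 2-fold higher, 3.87% of all genes in C7), while the Mmp9 ratio was -0.55. None of the 4 was at least 2-fold lower there, beside 2.41% of all genes. Without the high cells described below, the Mmp9 ratio turned to 0.51, at 51.4 CPM in sponge at 4 weeks and 36.1 CPM in sponge at 2 weeks, and the Ctsk ratio was 1.68. Those cells were picked by their Acp5 and Mmp9, so a lower Mmp9 in sponge at 2 weeks followed from how they were picked.

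Mmp9 in C7 was at least 2-fold higher in silk at 4 weeks than in silk at 2 weeks (1.19 on the log2 scale, 1 of 4 genes beside 4.38% of all, with 3.93% lower) and just past 2-fold higher than in sponge at 4 weeks (1.002, 1 of 4 genes beside 2.11% of all, with 3.47% lower). In silk over sponge at 2 weeks the C7 ratios were 0.23 for Acp5, 0.43 for Ctsk, -0.75 for Mmp9 and -0.90 for Atp6v0d2, so 0 of 4 genes reached 2-fold, beside 3.31% of all genes higher and 3.77% lower. Without the high cells the Mmp9 ratio turned to 0.28, and the others were 0.43 for Acp5, 0.56 for Ctsk and -0.88 for Atp6v0d2. The class ratio of 1.62 for Ctsk in that comparison thus came with a ratio of 0.43 inside C7, and C7 was 60.7% of the class in silk and 15.8% in sponge.

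The monocyte-rich subcluster C3, with monocyte markers between 7076 and 9315 CPM, had the lowest levels among the granuloma subclusters, apart from Mmp9 in sponge at 4 weeks, where C6 stood at 2.65 CPM. Acp5 was at 15.6, 18.7, 14.8 and 11.2 CPM in C3 of silk at 4 weeks, silk at 2 weeks, sponge at 4 weeks and sponge at 2 weeks, and Ctsk at 5.86, 11.2, 19.1 and 8.43 CPM. Mmp9 was at 0, 0, 3.48 and 0.47 CPM there, and Atp6v0d2 at 1.95, 1.87, 1.74 and 0.94 CPM. The macrophage-rich C5, whose macrophage markers summed to between 13443 and 13872 CPM, was below C7 in Ctsk and Acp5. It held Ctsk at 108 CPM in silk at 2 weeks, 133 CPM in sponge at 4 weeks and 83.7 CPM in sponge at 2 weeks, and Acp5 at 65.7, 54.6 and 36.7 CPM. Its Atp6v0d2 was at 105 CPM in silk at 2 weeks, close to the 110 CPM of C7, and at 88.3 and 56.1 CPM in sponge at 4 and at 2 weeks.

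C6, a subcluster of shallow cells with medians between 948 and 1720 UMIs, held Ctsk at 90.4, 297, 400 and 89.4 CPM in silk at 4 weeks, silk at 2 weeks, sponge at 4 weeks and sponge at 2 weeks. C4, the most frequent subcluster of sponge at 2 weeks with 2542 cells, carried Mmp9 without the other 3 genes at the C7 level. Mmp9 stood at 117 CPM in C4 and 75.5 CPM in C7 of that library, while Ctsk stood at 62.5 CPM in C4 and 907 CPM in C7, Acp5 at 76.3 and 214 CPM and Atp6v0d2 at 20.4 and 205 CPM. In silk at 2 weeks C4 held Mmp9 at 32.5 CPM over 139 cells, and in sponge at 4 weeks at 6.44 CPM over 71 cells. Of the class's Mmp9 UMIs in sponge at 2 weeks, 37.9% lay in C4, which held 39.5% of all UMIs of that class. At the neutrophil ratio, 0.78% of them would be accounted for by the neutrophil transcripts of these cells.

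**Figure D2:**
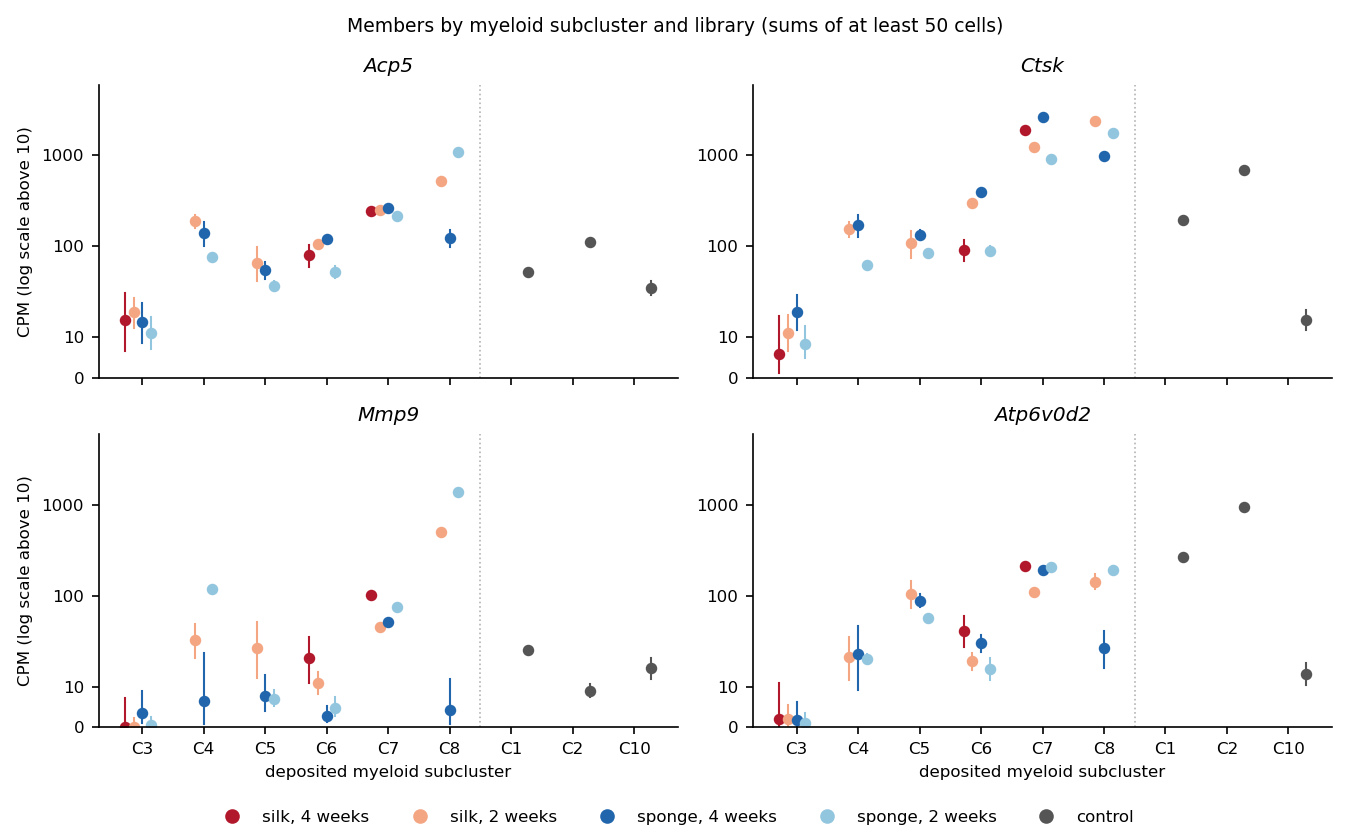
Level of each gene (CPM, log axis above 10) in each myeloid subcluster with at least 50 cells, one point per library. Granuloma subclusters C3 to C8 stand left of the dotted line and the control subclusters C1, C2 and C10 right of it. C7 and C8 held the highest Ctsk, between 907 and 2657 CPM, and C2 of control the highest Atp6v0d2 at 941 CPM.

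Atp6v0d2 was found in more of the cells of control than of any granuloma. A UMI of it was found in 50.6% of control class cells, against 24.8%, 17.97%, 21.7% and 12.02% in silk at 4 weeks, silk at 2 weeks, sponge at 4 weeks and sponge at 2 weeks. The control cells were deeper, so cells were thinned to 1000 UMIs each, which left out 192, 642, 631 and 485 granuloma cells and 345 control cells. The shares were then 9.50%, 5.38%, 8.53% and 3.89% in the granulomas and 19.9% in control, against thinned Ctsk shares of 24.5%, 24.1%, 32.7% and 7.72% in the granulomas and 12.8% in control. Between 1.36% and 1.81% of endothelial cells held an Atp6v0d2 UMI unthinned.

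Control subcluster C2, 706 cells with a median of 16764 UMIs, held Atp6v0d2 in 99.7% of cells at 941 CPM. It also held Ctsk at 695 CPM and Acp5 at 112 CPM, with Mmp9 at 8.86 CPM. C1, 6476 cells, held Atp6v0d2 at 264 CPM, Ctsk at 197 CPM, Acp5 at 52.5 CPM and Mmp9 at 25.0 CPM. C10, 550 cells, held all 4 genes between 13.9 and 34.9 CPM. Control therefore had a subcluster with both Atp6v0d2 and Ctsk but with little Mmp9.

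The proliferating subcluster C8, in which proliferation genes summed to between 7675 and 9280 CPM, held the highest levels of Acp5 and Mmp9 in the libraries of 2 weeks. Acp5 was at 1096 CPM in sponge at 2 weeks over 133 cells, 517 CPM in silk at 2 weeks over 61 cells and 122 CPM in sponge at 4 weeks over 90 cells. Mmp9 was at 1372 CPM in sponge at 2 weeks, 494 CPM in silk at 2 weeks and 4.16 CPM in sponge at 4 weeks, where only 3 UMIs were counted. Ctsk was at 1746, 2389 and 994 CPM and Atp6v0d2 at 192, 143 and 26.4 CPM in the same 3 libraries. At the neutrophil ratio the neutrophil transcripts of C8 would account for 78.6% of its 3 Mmp9 UMIs in sponge at 4 weeks and for 0.012% of its Mmp9 UMIs in sponge at 2 weeks. In C3 of sponge at 2 weeks they would account for 104% of the single Mmp9 UMI.

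Sponge at 4 weeks over sponge at 2 weeks in C8 was -8.14 for Mmp9, with a counting interval from -10.64 to -6.82, -3.16 for Acp5 and -2.83 for Atp6v0d2, so 3 of 4 genes were at least 2-fold lower beside 5.9% of all genes. Ctsk differed by -0.81, and 5.84% of all genes were at least 2-fold higher. Silk over sponge at 2 weeks in C8 was -1.08 for Acp5 and -1.47 for Mmp9, 2 of 4 genes beside 6.59% of all lower and 5.7% higher, with 0.45 for Ctsk and -0.42 for Atp6v0d2.

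These C8 ratios moved without the high cells described below. Those cells were picked by their Acp5 and Mmp9, with 14 in C8 of sponge at 2 weeks and 1 in C8 of silk at 2 weeks. A lower level of both genes in C8 of sponge at 2 weeks thus followed from how they were picked. Without them silk over sponge at 2 weeks turned to 0.54 for Acp5 and 1.67 for Mmp9, with 2.72 for Ctsk and 0.98 for Atp6v0d2. Sponge at 4 weeks over sponge at 2 weeks turned to 1.90 for Ctsk, and was -0.72 for Acp5, -3.19 for Mmp9 (-5.71 to -1.78) and -1.03 for Atp6v0d2. In silk at 4 weeks C8 had 24 cells and was not summed, and 4 of them held 94.3% of its Acp5 UMIs. Few cells thus carried much of the signal, and the single cells were looked at next.

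The 1% of class cells with most Mmp9 held 50.4%, 63.9%, 69.2% and 76.4% of its UMIs in silk at 4 weeks, silk at 2 weeks, sponge at 4 weeks and sponge at 2 weeks, and 55.7% in control. For Ctsk the share was 26.7%, 29.1%, 24.9% and 60.0% in these granulomas and 26.5% in control. For Acp5 it was 27.8%, 14.7%, 15.9% and 47.1% in these granulomas and 13.8% in control. Sponge at 2 weeks thus had the most uneven distribution for all 3 genes. Its highest cell held 394 Acp5 UMIs, and another held 434 Mmp9 UMIs.

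After these values were seen, cells were set apart that held at least 5 UMIs and at least 1000 CPM of both Acp5 and Mmp9, so what follows on the genes of this rule is a description. There were 17 such cells among 7113 in sponge at 2 weeks, a share of 0.239% (exact 95% interval 0.139% to 0.382%), and 4 among 7350 in silk at 2 weeks. None was found in silk at 4 weeks, where 0 of 1045 cells allows a share of up to 0.287%, in sponge at 4 weeks (0 of 4605, up to 0.065%) or in control (0 of 7783, up to 0.039%). The cell just inside the rule held 1015 CPM of the lower of the 2 genes and the one just outside 968 CPM. With 500 CPM in place of 1000 the counts were 4, 21, 4 and 22 in silk at 4 weeks, silk at 2 weeks, sponge at 4 weeks and sponge at 2 weeks and 0 in control, and with 2000 CPM they were 0, 1, 0 and 13, and 0 in control. None of the 21 cells shared its barcode with another library.

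**Figure D3:**
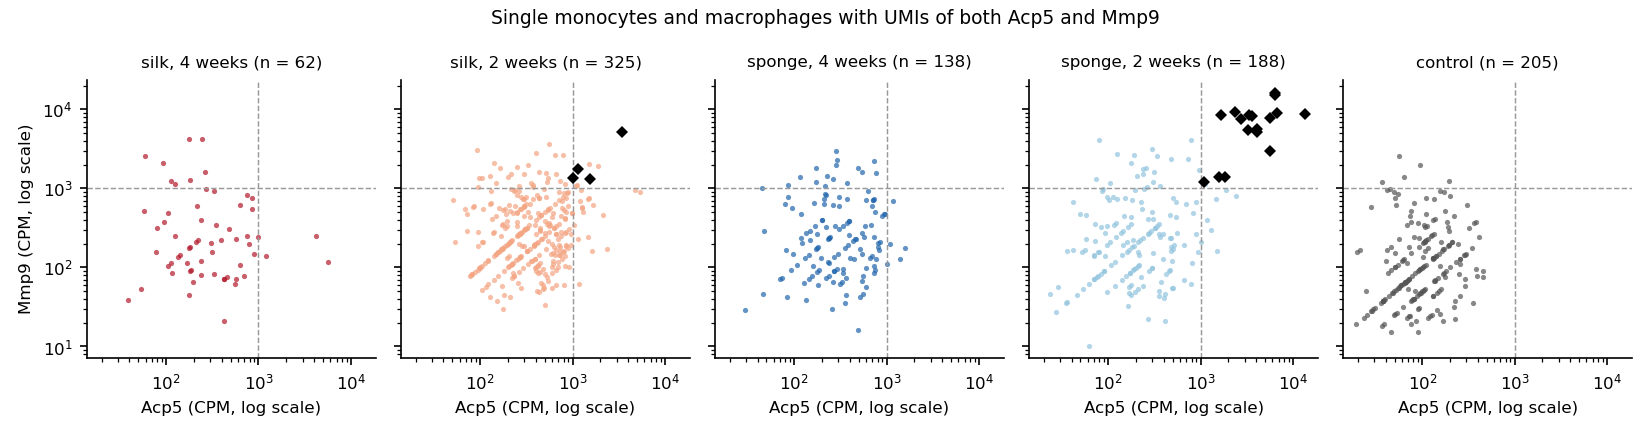
Acp5 against Mmp9 in single class cells that held UMIs of both (CPM, log axes), with 62 cells in silk at 4 weeks, 325 in silk at 2 weeks, 138 in sponge at 4 weeks, 188 in sponge at 2 weeks and 205 in control. Dashed lines mark 1000 CPM and black diamonds the cells past 1000 CPM and 5 UMIs in both genes, which number 17 in sponge at 2 weeks and 4 in silk at 2 weeks.

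The 17 cells of sponge at 2 weeks were large in counts, with 7303 to 46984 UMIs and a median of 20946, against a class median of 4729. Of them 14 lay in C8, where they were 10.5% of 133 cells, and 3 in C7. They held 11 to 394 Acp5 UMIs (median 72), 12 to 434 Mmp9 UMIs (median 145), 0 to 587 Ctsk UMIs (median 136) and 1 to 66 Atp6v0d2 UMIs (median 12). With 0.944% of the UMIs of the class they held 52.1% of its Mmp9, 31.9% of its Acp5, 23.6% of its Ctsk and 8.68% of its Atp6v0d2.

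Without them C8 of sponge at 2 weeks was at 202 CPM for Acp5, 265 CPM for Ctsk, 43.8 CPM for Mmp9 and 55.0 CPM for Atp6v0d2. C7 without its 3 was at 186 CPM for Acp5, 828 CPM for Ctsk, 36.1 CPM for Mmp9 and 203 CPM for Atp6v0d2, so C8 was then below C7 in Ctsk and Atp6v0d2 and slightly above it in Acp5 and Mmp9. The class without them was at 96.2, 269, 58.9 and 73.2 CPM for the 4 genes in that order. Mmp9 of sponge at 2 weeks then exceeded control by 1.44 on the log2 scale, and sponge at 4 weeks over sponge at 2 weeks was -0.71. Silk over sponge at 2 weeks was -0.57 for Mmp9 without the high cells of both libraries. These 3 Mmp9 ratios thus kept their sign without the cells, and the last 2 were then under 2-fold, while silk at 4 weeks over silk at 2 weeks stood at 1.06.

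Several osteoclast genes outside the rule were present in the same 17 cells as a group, though not each gene in each cell. Nfatc1, the master regulator, was found in 15 of them with up to 56 UMIs and stood at 520 CPM, against 37.8 CPM in the other class cells of the library. Jdp2, an AP-1 family factor needed for osteoclast formation in mice, was found in all 17 at 525 CPM, against 30.7 CPM. Both are log2 ratios near 4, at 3.78 and 4.10.

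Oscar, a receptor of the osteoclast lineage that signals beside RANK, was nearly confined to them, with 36 of the 39 Oscar UMIs in the class of sponge at 2 weeks. The class of the other libraries held 0 in silk at 4 weeks, 2 in silk at 2 weeks, 0 in sponge at 4 weeks and 1 in control. Car2, the carbonic anhydrase that feeds the proton pump, stood at 306 CPM in the 17 cells and 2.46 CPM in the others. Ocstamp and Dcstamp, membrane proteins needed for fusion, stood at 314 and 161 CPM, against 3.52 and 14.9 CPM. They were the only 2 of 10 fusion genes at least 2-fold higher, and 5 of the 10 were at least 2-fold lower. Tnfrsf11a, the receptor RANK, was at 103 CPM, against 44.0 CPM. Itgb3 and Src, an integrin chain and a kinase of the osteoclast's sealing zone, exceeded the other cells by 5.15 and 3.66 on the log2 scale. Of the 17 cells, Oscar was found in 10, Itgb3 in 7, Ocstamp in 15 and Src in 16. Car2, Dcstamp and Tnfrsf11a were each found in 13. A C7 cell among the 17 held 0 UMIs of Ctsk, Nfatc1, Oscar, Car2, Ocstamp, Dcstamp and Itgb3. Calcr, the calcitonin receptor, was at 0 in the class of all 5 libraries, with up to 0.47 CPM allowed by 0 counts in the smallest.

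**Figure D4:**
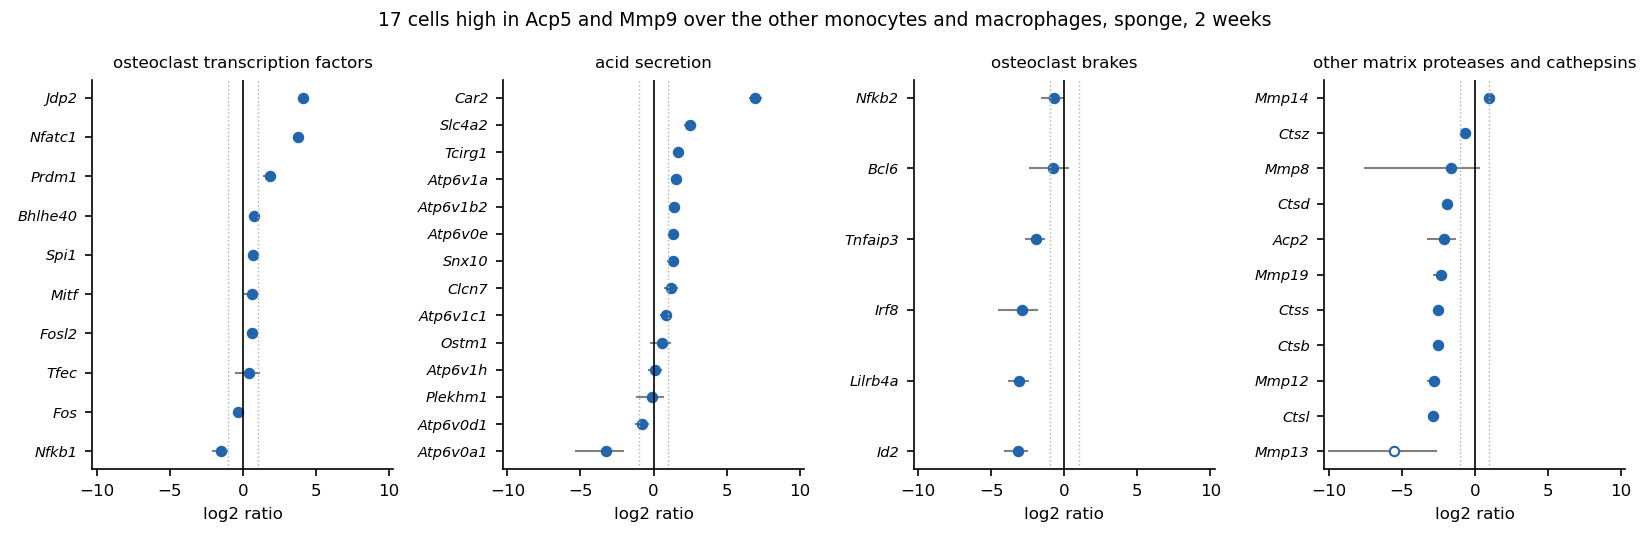
Log2 ratio of summed counts in the 17 high cells over the other class cells of sponge at 2 weeks, for measured genes of 4 lists (transcription factors, acid secretion, brakes, other proteases and cathepsins), with exact 95% counting intervals. Dotted lines mark 2-fold, and the open point is Mmp13, which had 0 UMIs in the 17 cells. Car2 stood highest at 6.96 and Jdp2 and Nfatc1 at 4.10 and 3.78, while Id2 stood at -3.17.

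By list, 3 of 10 osteoclast transcription factors were at least 2-fold higher and 1 lower in the 17 cells than in the other class cells, where 23.8% of all measured genes were higher and 19.9% lower. Of 10 measured receptors and adaptors 5 were higher and 3 lower. Of 10 fusion genes 2 were higher and 5 lower, with a median log2 ratio of -1.27. Of 14 acid secretion genes 8 were higher and 1 lower. The higher ones, beside Car2, included Slc4a2, the chloride and bicarbonate exchanger (2.51), Tcirg1, the osteoclast form of the pump's a subunit (1.69), and Clcn7, the chloride channel (1.22). Atp6v0a1, the widely expressed a subunit, was lower at 10.0 CPM against 108 CPM, and Atp6v0d1, the widely expressed counterpart of Atp6v0d2, was at 123 CPM against 212 CPM.

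Of 7 brakes on osteoclast formation, 5 were at least 2-fold lower and 0 higher. Irf8, a factor that holds macrophages back from the osteoclast fate, stood at -2.89 on the log2 scale, and Id2, an inhibitor of helix-loop-helix factors, at -3.17. Macrophage markers summed to 1386 CPM against 6473 CPM, with 6 of 8 at least 2-fold lower, although Csf1r and Cd68 stood at -0.44 and 0.35. Of 11 other matrix proteases and cathepsins 9 were lower, Ctsl by -2.84, Mmp12 by -2.81 and Ctsb by -2.502 among them, and Mmp14, a membrane collagenase, stood at 0.95. Mmp13 is among the 9 with 0 UMIs in the 17 cells. Timp1, an inhibitor of the enzyme that Mmp9 encodes, stood at -3.38, Spp1, which encodes osteopontin, at -1.45, and Cst3, the cathepsin inhibitor cystatin C, at 0.12.

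Against the other 119 C8 cells of the library, 6 of 10 transcription factors and 9 of 14 acid secretion genes were at least 2-fold higher, where 8.99% of all genes were. Of 10 measured receptors and adaptors 4 were higher and 3 lower there, and of 9 measured fusion genes 2 were higher and 5 lower. Of 19 proliferation genes 12 were at least 2-fold higher and 0 lower than in the other class cells, while 17 were lower and 0 higher than in the other C8 cells, where 24.4% of all genes were lower. Their summed level was 2843 CPM in the 17 cells, 1614 CPM in the other class cells and 8807 CPM in the other C8 cells, and Mki67, a proliferation marker, was found in 3 of the 17 cells. Neutrophil markers summed to 20.1 CPM in the 17 cells against 214 CPM in the other class cells, fibroblast markers to 251 CPM against 448 CPM, and B cell and T or NK cell markers were at 0. No doublet caller was run, and whether each barcode held 1 cell was not tested.

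The genes with the largest ratios over the other class cells, with an offset for low counts, included Car2, Ocstamp, Jdp2 and Nfatc1 and others outside the lists. Chchd10, a mitochondrial protein, was at 683 CPM against 13.7 CPM, Ckb, brain-type creatine kinase, at 2267 CPM against 137 CPM, and Tfrc, the transferrin receptor, at 580 CPM against 45.9 CPM. Slc9b2, a sodium and proton exchanger described in osteoclasts, was at 216 CPM against 0.81 CPM, and Arsb, a lysosomal sulfatase, at 500 CPM against 13.8 CPM.

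In silk at 2 weeks, 1 of the 4 cells resembled these in part. It lay in C8, had 54204 UMIs and held 187 Acp5, 583 Ctsk, 278 Mmp9, 32 Atp6v0d2, 48 Nfatc1 and 34 Jdp2 UMIs. It also held 7 Car2, 6 Dcstamp, 4 Src and 4 Tnfrsf11a UMIs, but only 3 Ckb and 1 Ocstamp UMIs and 0 of Oscar and Itgb3. The other 3 lay in C7, had 5911, 7668 and 14839 UMIs and held 0 Nfatc1 UMIs. The 4 cells held 16.0% of the class's Mmp9 UMIs. Without the C8 cell, C8 of silk at 2 weeks was at 293 CPM for Acp5 and 140 CPM for Mmp9.

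Cells high in 1 of the 2 genes were more frequent than cells high in both. Past the same limits, 14, 91, 47 and 27 cells were high in Acp5 alone in silk at 4 weeks, silk at 2 weeks, sponge at 4 weeks and sponge at 2 weeks, and 1 in control. In Mmp9 alone they numbered 10, 35, 16 and 69 in these granulomas and 17 in control. Of the 69 in sponge at 2 weeks 61 lay in C4, and they held 57.2% of the Mmp9 UMIs of C4. Silk at 2 weeks and sponge at 4 weeks thus had more cells high in Acp5 alone, and sponge at 2 weeks and control more high in Mmp9 alone.

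Inside C7, cells with more Ctsk held more Atp6v0d2, and in 3 of 4 libraries the steps were steeper than those of Acp5. C7 cells with at least 3000 UMIs were set out by their own Ctsk level, as 0 UMIs, up to 1000, 1000 to 5000 and over 5000 CPM. From the lowest to the highest of these, Atp6v0d2 was at 53.8, 128, 349 and 472 CPM in silk at 4 weeks, 40.1, 84.3, 192 and 341 CPM in silk at 2 weeks and 101, 127, 240 and 313 CPM in sponge at 4 weeks. In sponge at 2 weeks it was at 115, 227, 324 and 293 CPM. Acp5 was at 174, 253, 251 and 341 CPM in silk at 4 weeks, 188, 275, 282 and 307 CPM in silk at 2 weeks, and 203, 247, 265 and 340 CPM in sponge at 4 weeks.

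In sponge at 2 weeks the highest Ctsk group, 45 cells, held 985 CPM of Acp5 and 1008 CPM of Mmp9. It includes 2 of the 3 high C7 cells, which held 108 and 195 Acp5 UMIs. Gpnmb, a glycoprotein of lysosome-rich macrophages and osteoclasts, was at 243, 912, 2816 and 5887 CPM over the same groups in silk at 4 weeks and at 557, 1452, 3725 and 886 CPM in sponge at 2 weeks. Dcstamp showed no such order, at 76.2, 67.8, 52.3 and 91.2 CPM in silk at 4 weeks and 78.3, 51.1, 45.8 and 33.2 CPM in silk at 2 weeks. Cells over 5000 CPM were 10.34%, 5.90%, 17.4% and 4.58% of these C7 cells in silk at 4 weeks, silk at 2 weeks, sponge at 4 weeks and sponge at 2 weeks, and they held 62.5%, 50.02%, 62.8% and 41.8% of their Ctsk UMIs.

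**Figure D5:**
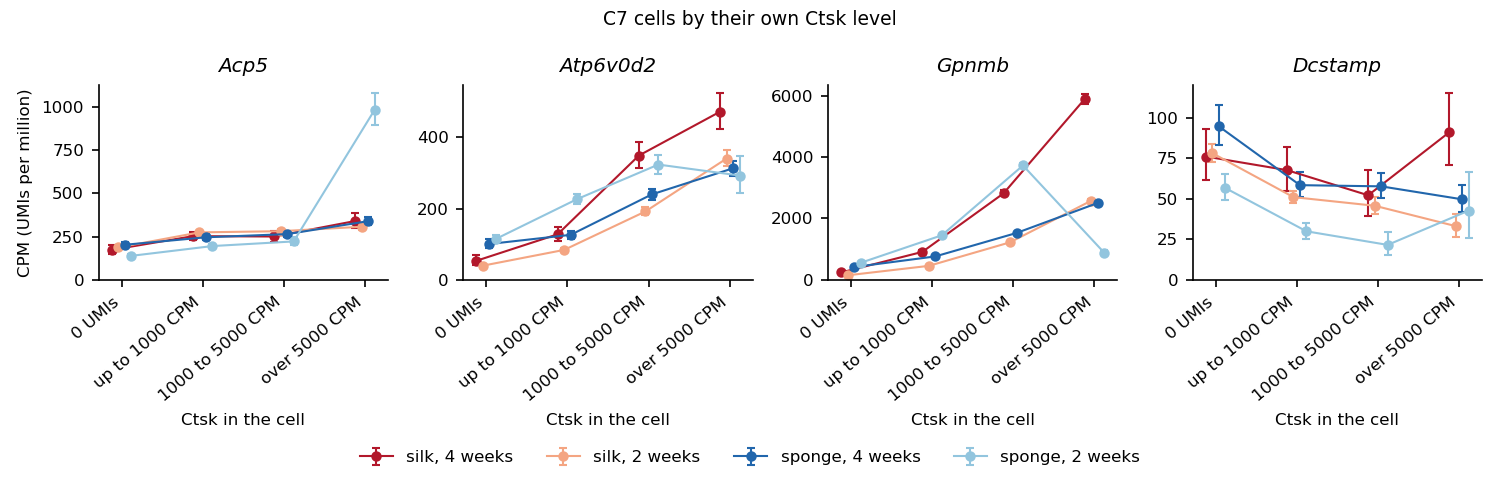
Levels of Acp5, Atp6v0d2, Gpnmb and Dcstamp (CPM) in C7 cells with at least 3000 UMIs, grouped by the cell's own Ctsk level from 0 UMIs to over 5000 CPM, one line per granuloma library, with 95% Poisson intervals. In silk at 4 weeks Atp6v0d2 was at 53.8 CPM in cells with 0 Ctsk UMIs and 472 CPM in those over 5000 CPM.

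At a depth of 1000 UMIs few cells held 3 or 4 of the transcripts, and such a depth misses many transcripts at these levels. No share expected at that depth was computed. Thinned to 1000 UMIs, 2.84%, 1.57%, 2.71% and 1.52% of C7 cells held 3 or 4 of the genes in silk at 4 weeks, silk at 2 weeks, sponge at 4 weeks and sponge at 2 weeks, and 2.12% of C2 and 0.293% of C1 cells in control. As deposited the C7 shares were 30.6%, 20.4%, 28.1% and 25.5%, and those of control were 61.5% in C2 and 14.5% in C1. Thinned C7 cells with a Ctsk UMI held Atp6v0d2 in 19.7%, 12.3%, 16.5% and 21.2% of cells in those granulomas, against 7.54%, 4.94%, 9.31% and 10.8% of C7 cells without one. For Acp5 the same shares were 22.9%, 20.8%, 23.1% and 21.6% with Ctsk, against 14.8%, 17.6%, 18.3% and 13.6% without. Each was higher with Ctsk in all 4 granulomas, by more for Atp6v0d2.

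Across the 29 sums of a subcluster in a library with at least 50 cells, Acp5 and Ctsk were each among the 5 genes most like the other of 11167 measured. Likeness is the Pearson correlation of log2(CPM + 10), and these points share libraries, depth and makeup, so it is a description. C9 was among them, with 5 of the 29 sums. For Acp5 the genes were Ctsk (0.91), Usp14 (0.90), Vdac2 (0.90), Ppargc1b (0.89) and Cinp (0.88), and for Ctsk they were Vdac2 (0.96), Cyb5r3 (0.94), Rnf128 (0.92), Snx7 (0.91) and Acp5 (0.91). For Mmp9 they were Chchd10 (0.91), Ppargc1b (0.88), Uqcr11 (0.84), Acp5 (0.84) and Dusp9 (0.83). For Atp6v0d2 they were Gpnmb (0.97), Syngr1 (0.95), Ttyh2 (0.94), S100a1 (0.92) and Fblim1 (0.92).

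In the 25 granuloma sums alone, 4 of them C9, Acp5 was again most like Ctsk (0.92), while Acp5 stood at rank 7 for Ctsk, which was most like Vdac2 (0.95). Mmp9 was most like Chchd10 (0.93) and Atp6v0d2 like Gpnmb (0.97) there. In the 24 sums without C9, a choice made after seeing the data, Acp5 and Ctsk correlated at 0.90, which put Ctsk at rank 4 for Acp5 and Acp5 at rank 11 for Ctsk. Usp14 (0.91) then led for Acp5, Actn1 (0.97) for Ctsk, Chchd10 (0.93) for Mmp9 and Gpnmb (0.96) for Atp6v0d2. Over all 29 sums Mmp9 and Ctsk correlated at 0.68, Ctsk and Atp6v0d2 at 0.80, and Mmp9 and Atp6v0d2 at 0.59. Nfatc1 correlated with Acp5, Ctsk, Mmp9 and Atp6v0d2 at 0.62, 0.45, 0.55 and 0.31. By Spearman's rank correlation the gene most like Mmp9 was Clybl (0.87), with Chchd10 at 0.68, so the gene named first for Mmp9 differs with the measure.

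Upstream of the 4 genes, the ligands were higher in all granulomas than in control. Csf1, the survival factor of the lineage, stood 4.27, 4.82, 5.92 and 4.14 above control on the log2 scale in silk at 4 weeks, silk at 2 weeks, sponge at 4 weeks and sponge at 2 weeks. Tnf, which adds to RANKL signalling, stood at 4.02, 3.49, 3.92 and 5.13 and Spp1 at 1.74, 2.47, 2.503 and 2.70. These are the 3 measured ligands, all at least 2-fold higher in each comparison, beside 13.0%, 13.6%, 15.1% and 15.5% of all genes. Tnfsf11, which encodes RANKL, had between 1 and 14 UMIs in the class of each library.

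The receptors and adaptors were mixed, with 1 of 9, 2 of 9, 3 of 9 and 3 of 10 at least 2-fold higher and 0, 2, 1 and 1 lower in the same 4 comparisons, and medians of 0.31, 0.19, 0.21 and 0.32. Between 13.0% and 15.5% of all genes were higher in these comparisons and between 11.3% and 12.8% lower. Src stood at 4.98, 4.87, 4.92 and 4.14, and Itgav, another integrin chain, at 0.98, 1.75, 1.32 and 1.59. Tnfrsf11a was at 39.7, 37.7, 42.0 and 44.5 CPM in the granulomas and 28.4 CPM in control. Trem2 and Tyrobp, a receptor and its signalling adaptor, were lower, at -0.63 and -0.74 in silk at 4 weeks, -1.07 and -1.13 in silk at 2 weeks, -0.83 and -1.09 in sponge at 4 weeks and -1.15 and -0.87 in sponge at 2 weeks.

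Of 10 transcription factors 5, 5, 5 and 6 were at least 2-fold higher and 0 lower, with medians of 0.96, 0.98, 1.03 and 1.12. The shares of all genes were 13.0% to 15.5% higher and 11.3% to 12.8% lower. Fosl2 and Prdm1 stood highest, at 2.65 and 2.14 in silk at 4 weeks, 2.82 and 2.78 in silk at 2 weeks, 2.76 and 2.25 in sponge at 4 weeks and 2.94 and 2.86 in sponge at 2 weeks. Nfatc1 was at 75.2, 70.3, 80.6 and 42.4 CPM in these granulomas and 50.4 CPM in control, and Mitf, a regulator of Acp5 and Ctsk, stood at 0.32, 0.47, 0.05 and -0.11. Of 7 brakes 4 were at least 2-fold higher in each granuloma, at medians of 1.38, 1.29, 1.22 and 1.45, with Tnfaip3, an inhibitor of NF-kB signalling, at 3.31, 2.81, 3.24 and 3.42 and Id2 at 2.15, 2.46, 2.45 and 2.45. Irf8 stood at -1.05, -1.23, -0.93 and -0.66. Factors and brakes were thus both higher in part.

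Of 14 acid secretion genes 1, 2, 2 and 2 were at least 2-fold higher and 1, 1, 0 and 1 lower, with medians of -0.12, 0.05, 0.01 and -0.17. These counts stood beside 13.0% to 15.5% of all genes higher and 11.3% to 12.8% lower. Car2 stood at 5.97, 6.39, 6.65 and 6.17 over control, where 5 UMIs were counted, and Atp6v1h, another pump subunit, at 0.87, 1.05, 1.26 and 1.08. Plekhm1, which directs lysosomes to the cell surface, stood at -1.65, -1.46, -0.89 and -1.42 and Atp6v0a1 at -0.74, -0.76, -0.27 and -0.75. Atp6v0d1 was at 197, 256, 233 and 211 CPM in the granulomas and 174 CPM in control. In the class the d1 subunit was thus above control and the d2 subunit below it. Over the subcluster sums the d1 and d2 subunits had a Pearson correlation of 0.58 over all 29 and 0.72 in the 25 of the granulomas. Atp6v0d1 stood at rank 1291 of 11167 genes for Atp6v0d2 over all sums and at rank 650 of 10749 in the granulomas. Without C9 their correlation over the sums of all libraries was 0.50.

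Of 10 fusion genes 6, 8, 7 and 5 were at least 2-fold higher and 0 lower, with medians of 1.53, 1.88, 1.81 and 1.38. For this list and the proteases below, 13.0% to 15.5% of all genes were higher and 11.3% to 12.8% lower. Ocstamp stood at 7.20, 7.81, 6.90 and 6.74, over 4 UMIs in control, and Dcstamp at 6.50, 6.28, 6.27 and 4.64, while Sirpa, a surface receptor, was at 0.22, -0.04, 0.12 and -0.18 and its ligand Cd47 at -0.29 in silk at 4 weeks and at 0.07 in silk at 2 weeks. Of 11 other matrix proteases and cathepsins 4, 4, 4 and 5 were at least 2-fold higher and 3, 2, 2 and 1 lower, with medians of -0.02, 0.22, -0.09 and 0.75. Mmp19 stood at 3.98, 4.85, 4.55 and 3.70 and Mmp14 at 3.57, 4.08, 4.13 and 3.63, while Ctsb stood at -1.35, -1.08, -1.05 and -0.76 and Ctsd at -1.08, -1.38, -1.07 and -1.47. Mmp14 and Mmp19 thus stood with Mmp9 above control, and the lysosomal cathepsins B and D, unlike cathepsin K, below it.

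Among inhibitors of the enzymes, 1 of 4, 3 of 7, 4 of 7 and 4 of 7 were at least 2-fold higher and 1 lower in each comparison, with medians of 0.12, 0.95, 2.20 and 1.78. Among all genes 13.0% to 15.5% were higher and 11.3% to 12.8% lower. Timp1 was at 28.4, 79.8, 50.7 and 64.7 CPM in the granulomas and 2.2 CPM in control. Timp2, a relative of Timp1, stood at -1.39, -1.69, -1.35 and -1.35, and Cst3 was at 1670, 1218, 1509 and 1664 CPM in the granulomas and 2033 CPM in control. Timp3, with 50, 58 and 59 UMIs in silk at 2 weeks, sponge at 4 weeks and sponge at 2 weeks, had 1 UMI in control. Its log2 ratios were 5.87 (3.90 to 11.78), 7.12 (5.16 to 13.02) and 6.13 (4.17 to 12.03). Of 19 proliferation genes 10, 7, 10 and 11 were at least 2-fold higher than control, Ccna2 by 3.22, 1.57, 2.72 and 2.15.

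Between granulomas, none of the 14 acid secretion genes and none of the 7 or 8 measured brakes reached 2-fold in any of the 4 comparisons. Of all genes, between 2.03% and 5.42% were higher and between 3.51% and 8.47% lower there, so lists this small can hold none at those shares. Silk over sponge at 2 weeks, 5 of 10 fusion genes were higher, beside 3.58% of all genes. They were Cdh1 (2.02), Dcstamp (1.64), Cd9 (1.49), Cd36 (1.11) and Ocstamp (1.08), and Bhlhe40 (1.15) was higher among the transcription factors. Of the proteases Mmp12 (1.46) and Mmp19 (1.15) were higher and Mmp13 (-1.50) and Ctsl (-1.03) lower, and Tnf (-1.64), Cst7 (-1.34) and Ccnb1 (-1.04) were lower. Oscar, at -4.00 (-7.40 to -2.35), rested on 2 UMIs in silk at 2 weeks. In sponge at 4 weeks over sponge at 2 weeks, Csf1 (1.78), Dcstamp (1.63), Mmp12 (1.39), Bhlhe40 (1.34), Cdh1 (1.13) and Cd9 (1.09) were higher and Mmp13 (-1.75), Jdp2 (-1.41), Cst7 (-1.40) and Tnf (-1.21) lower.

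Silk over sponge at 4 weeks, Csf1 (-1.66), Cdh1 (-1.16), Ctsl (-1.14) and Timp3 (-1.98, on 4 UMIs in silk) were lower and Ccnb2 (1.16) higher. Silk at 4 weeks over silk at 2 weeks, 8 of 19 proliferation genes (5.33% of all genes) and Cd81 (1.36) were higher and Cdh1 (-2.04) and Timp1 (-1.49) lower. The rescaling named above moved sponge at 4 weeks over sponge at 2 weeks by 0.12 and the other 3 comparisons between granulomas by less than 0.1 in size.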

How the data were processed

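Single-cell 3' libraries were made with a droplet kit, per the labels' protocols. The deposited files are raw UMI counts (21617 genes, 41191 cells) and the authors' table giving each cell's library, class, subcluster and percent of mitochondrial UMIs, and the deposited totals matched the sums of the counts. Cell Ranger 3.0.0, Seurat 3.0 and mm10 are named per the submitters' processing notes. How cells were filtered before that is not given in the sources used here, and the shallowest cell had 274 UMIs and the highest deposited mitochondrial percent was 24.98%. Libraries held 11207419 (silk at 4 weeks), 63570615 (silk at 2 weeks), 50734356 (sponge at 4 weeks), 96066597 (sponge at 2 weeks) and 80521014 UMIs (control).

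Counts were summed per library over the deposited class or subcluster (at least 50 cells) and given as CPM with exact Poisson intervals, as shares with Clopper-Pearson intervals, and as log2 ratios with 0.5 counts added and exact conditional binomial intervals, all at 95% and for counting error only. A count of 0 allows up to 3 counts. With 1 library per group no test was possible, so a gene with at least 20 UMIs over both libraries was called at 2-fold. Cells were thinned to 1000 UMIs (seed 1). No doublet caller was run. C9 was left out of the class as a mixture by its markers, but its sums were among those of the likeness. The scripts were tested on simulated data.

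The 4 genes and all lists were chosen with earlier results of these data known. Named were the 4 genes, Nfatc1, Dcstamp, Ocstamp, Tnfrsf11a, Atp6v0d1, Timp1, Cst3 and Spp1, up to 2 genes each way per list and comparison (those at 2-fold and some nearer to 0 are printed; Siglec15 and other genes under the UMI limit are not), and 5 genes by likeness (at least 100 UMIs; no sex-linked, ribosomal, mitochondrial or predicted genes). Genes at 2-fold beyond these, those of the high cells, Gpnmb in the Ctsk groups and Calcr were chosen after their values were seen. A gene of the brakes list, counted in it, is not reported here. Alternatives were thinning, other averages, filters on cells or genes, a scaling by the median ratio and a fold of 1.5. Python 3.11.15, numpy 2.4.6, scipy 1.17.1, pandas 2.3.3 and matplotlib 3.10.9 were used.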

Additional observations from a re-analysis of the deposited data

Results flagged for a closer look

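The level of 2 genes differed between libraries in opposite directions under the same comparison, and with 1 library per group neither difference was tested. Mmp9 was higher at 4 weeks than at 2 weeks in silk, by a log2 ratio of 0.82, and lower in sponge, at -1.76. It was likewise higher in silk than in sponge at 4 weeks (1.21) and lower at 2 weeks (-1.37). Without the high cells of both genes the Mmp9 ratios at issue were 1.06 for silk at 4 weeks over silk at 2 weeks, -0.71 for sponge at 4 weeks over sponge at 2 weeks and -0.57 for silk over sponge at 2 weeks. For Ctsk, silk stood below sponge at 4 weeks (-0.35) and above it at 2 weeks (1.62).

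Outside the myeloid class, Acp5 stood at 121 CPM (110 to 132) in the B cells of the control library, above the 62.8 CPM of its myeloid class. A UMI of Acp5 was found in 40.9% of these 744 B cells at a median depth of 4514 UMIs, and in 23.4% of the control NK and T cells at 2725 UMIs.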

How the results depend on the processing

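Each group was 1 library, so these values say nothing of spread between animals, and silk at 4 weeks, with 1045 class cells, was the thinnest. No paired analysis was possible because the labels give 1 library per group. Of 432 log2 ratios recomputed, 415 kept their sign, and 193 of 236 counts stayed within 1.5 times. Settings that changed only the UMI limit of a measured gene could not move the 4 genes, and they are part of these tallies and the next. Of 472 single values (ratios, correlations and shares), 223 stayed within their counting interval or within 0.1 for correlations, 247 moved further and 2 turned from at least 2-fold lower to higher. The 2 that turned were Acp5 (0.54) and Mmp9 (1.67) in C8 for silk over sponge at 2 weeks, without the high cells, which were picked by these genes. Equal weights per subcluster could not be computed against control, which shared no subcluster of 50 cells. The alternatives without the high cells, without C9 in the likeness and with 500 or 2000 CPM were chosen after seeing the data. The cause of each change was not tested, beyond what a setting leaves out.

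Against control, the count of genes at least 2-fold lower in silk at 4 weeks (1) was 0 with the mean of the cells' own CPM and 0 without C6. The count higher in sponge at 2 weeks (2) was 1 after thinning, with the cells' own CPM, without C8, without cells with 2 fibroblast or neutrophil markers, without the 5% of cells of most UMIs, without cells over 10% mitochondrial UMIs and without the high cells. For silk over sponge at 2 weeks the count higher (1) was 2 after thinning, with the cells' own CPM, without C8, without the 5%, without the high cells and at 1.5-fold, 3 with the marker filter and 0 with equal subclusters. The count lower (1) was 0 after thinning, with the cells' own CPM, without C8, with the marker filter and without the high cells. For silk at 4 over 2 weeks the count higher (0) was 1 after thinning, with equal subclusters, without C8, without the 5% and without the high cells, and 2 with the cells' own CPM and at 1.5-fold. For sponge at 4 over 2 weeks the count higher (1) was 3 after thinning, with the cells' own CPM, with the marker filter and without the 5%, 2 without C8, without the high cells and at 1.5-fold, and 0 with equal subclusters. Its count lower (1) was 2 with equal subclusters and 0 without C8, with the marker filter and without the high cells. High cells in silk at 2 weeks (4) were 21 at 500 CPM and 1 at 2000 CPM.

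Signs of ratios near 0 turned most. Acp5 turned in silk over sponge at 4 weeks and in silk at 4 over 2 weeks, to between -0.25 and -0.02, in 5 settings each. With equal subclusters Acp5 and Atp6v0d2 were -0.38 and -0.29 for silk over sponge at 2 weeks, and -1.05 and -0.44 for sponge at 4 over 2 weeks. Ctsk in silk over sponge at 4 weeks was 0.36 with the marker filter, and in sponge at 4 over 2 weeks 0.59 with equal subclusters. Atp6v0d2 stayed below control in every setting run (-3.13 to -0.79).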

Other observations

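In granuloma fibroblasts Ctsk was found in 75.0% of cells in silk at 4 weeks, 79.1% in silk at 2 weeks, 91.4% in sponge at 4 weeks and 89.1% in sponge at 2 weeks. Acp5 stood at 66.4, 32.05, 69.9 and 64.4 CPM in the same fibroblasts.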
